A study of Homo sapiens with 12 samples.

Results

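The genes described here are 36 genes of glycolysis and of the hypoxia response, chosen by symbol from the 58735 genes of the deposited count table. They cover glucose uptake and phosphorylation, the phosphofructokinase step and its regulators, the lower steps of glycolysis, lactate and pyruvate handling, the hypoxia-inducible factor (HIF) regulators, and effector genes known to respond to low oxygen. All 36 had a row of their own in the table. Their RNA was counted by RNA-seq in LX-2, an immortalised human hepatic stellate cell line used as a model of the cells that make scar matrix in the liver. The 4 groups had 3 libraries each. SiNAT10_TGFB cells received siRNA against NAT10 and, 48 h later, TGF-β1 at 5 ng/ml for 24 h. SiNAT10 cells received the siRNA without TGF-β1, and the time from transfection to harvest is not given in the labels. TGFB cells received TGF-β1 at 5 ng/ml for 24 h without siRNA, and con cells were untreated. NAT10 is an RNA cytidine acetyltransferase, and TGF-β1 is the main activating cytokine of stellate cells. No control siRNA group is named in the labels, so transfection and loss of NAT10 cannot be told apart in either siRNA comparison.

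Glycolysis turns glucose into pyruvate in the cytosol, and much of its control lies in glucose transport, in hexokinase and in phosphofructokinase. Under low oxygen the subunits HIF1A and EPAS1 (HIF-2α) escape hydroxylation by EGLN enzymes, pair with ARNT and raise transcription of target genes. Known targets of HIF include glucose transporters, glycolytic enzymes and mitophagy genes. Activation of stellate cells is known to be accompanied by a shift towards glycolysis and lactate release.

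The libraries held 25877008 to 35132582 counts, those with siRNA at most 28311434 and those without at least 29797990. Levels are CPM (counts scaled to library size with TMM factors) unless FPKM is named, each mean ± SD is over 3 libraries, and fold changes are on the log2 scale. A gene was called at an edgeR adjusted p under 0.05 (quasi-likelihood test, Benjamini-Hochberg adjustment over 18560 genes). The labels call the libraries biological replicates and do not say whether they came from separate cultures, so p-values measure the spread between these libraries. NAT10, the targeted gene, averaged 18.6 ± 2.51 CPM in SiNAT10_TGFB cells, 18.6 ± 0.817 in SiNAT10 cells, 67.0 ± 1.19 in TGFB cells and 67.2 ± 3.75 in con cells. Of 12 stellate cell markers, COL1A1 had 769 to 7800 CPM and VIM had 798 to 1510 CPM, while LRAT and DCN had no count in any library and DES reached at most 0.232 CPM. Marker lists of hepatocytes, endothelial cells, macrophages and biliary cells summed to at most 28.6, 2.44, 7.72 and 73.9 CPM, mostly through SERPINA1 in the first and SOX9 in the last. In bulk RNA, a change in the make-up of the culture and a change in RNA per cell cannot be told apart.

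Of the 36 genes, 34 had enough counts for the test. EGLN3, a HIF prolyl hydroxylase, had 0.062 to 0.416 CPM, and CA9, a hypoxia-induced carbonic anhydrase, had 0 to 0.243 CPM, where 3 counts correspond to 0.0871 to 0.115 CPM. Expression per length was highest for the lower enzymes of the pathway. GAPDH averaged 1134 FPKM over the 12 libraries, TPI1 560.1, ENO1 438 and PKM 372, against 36.3 FPKM for the transporter SLC2A1 and 2.63 FPKM for the kinase PDK1. Together the 36 genes took 1.94% ± 0.0706 of all counts in SiNAT10_TGFB cells, 2.04% ± 0.0772 in SiNAT10 cells, 1.62% ± 0.0187 in TGFB cells and 1.64% ± 0.0395 in con cells. The siRNA groups thus gave these genes a larger share of raw counts than the groups without siRNA, and the ranges did not overlap. This share takes no TMM factor, and its parts differed. The 9 lower glycolysis genes summed to 13640 and 13880 CPM in SiNAT10_TGFB and SiNAT10 cells, against 11740 and 11240 in TGFB and con cells. The 5 genes of the phosphofructokinase step went the other way, at 598 and 556 against 933 and 744 CPM. Lactate and pyruvate genes summed to 1935, 1808, 2052 and 1680 CPM in the same order.

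Genes were called in both directions in every comparison. In TGFB against con cells, 18 of the 34 were higher and 5 lower, where 24.1% of all genes tested were called (11.9% higher, 12.2% lower). In SiNAT10_TGFB against TGFB cells, 14 were higher and 9 lower, beside 53.1% of all genes called (26.3% higher, 26.8% lower). In SiNAT10 against con cells, 20 were higher and 8 lower, beside 52.8% of all genes (26.4% higher, 26.4% lower). In SiNAT10_TGFB against SiNAT10 cells, 4 were higher and 5 lower, beside 11.1% of all genes (5.92% higher, 5.15% lower). The median log2 fold change of the 34 genes was 0.18, 0.07, 0.24 and -0.02 in these 4 comparisons, and that of all genes tested lay between -0.01 and 0.02. TGFB over con shares its con libraries with SiNAT10 over con and its TGFB libraries with SiNAT10_TGFB over TGFB, so opposite or like signs between those columns are not independent.

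**Figure D1:**
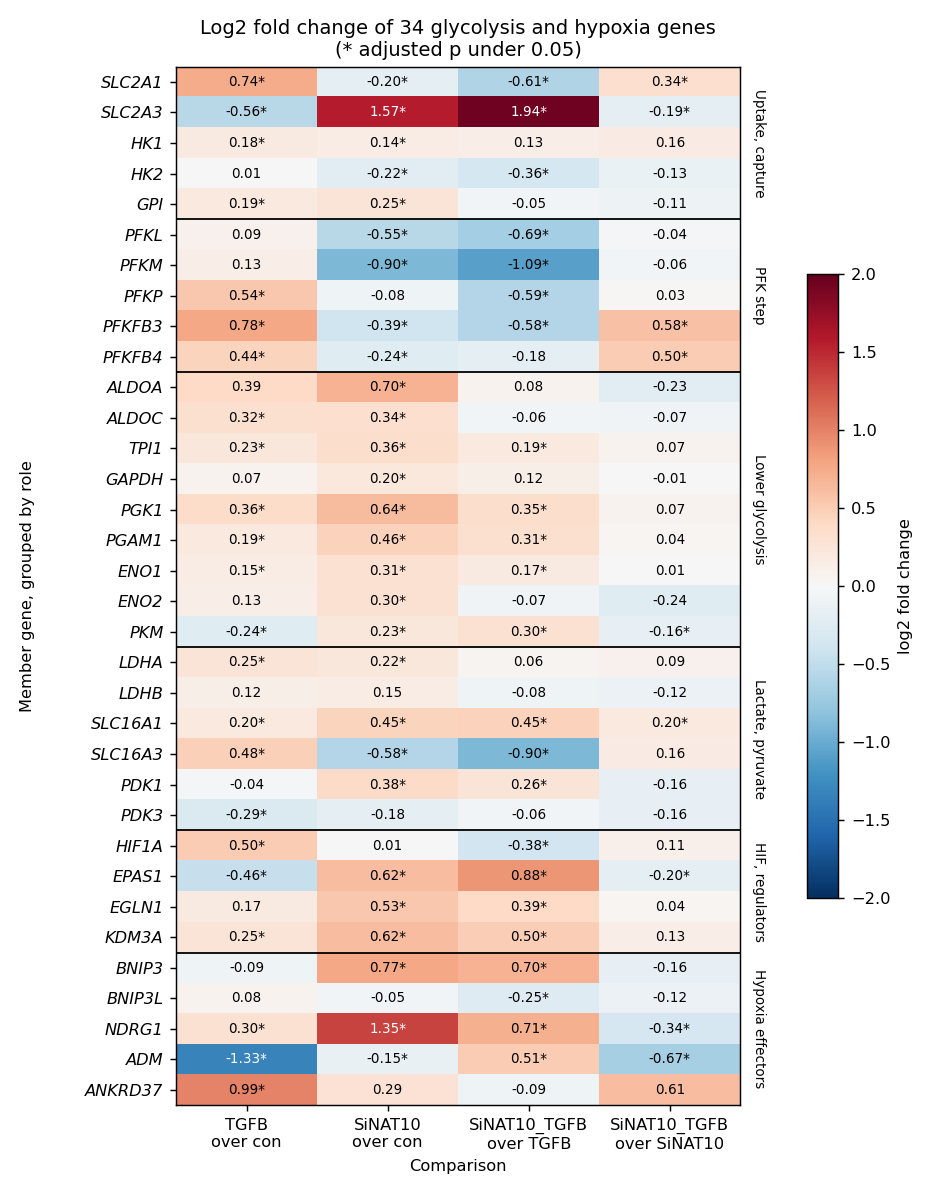
Log2 fold change (colour and number) of the 34 tested genes, in rows grouped by role, for 4 comparisons in columns, with an asterisk at an adjusted p under 0.05. SLC2A3 is the darkest cell of both siRNA columns (1.94 and 1.57), and PFKM the bluest of both (-1.09 and -0.90).

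The hypoxia response element, the site that HIF binds, has the core ACGTG or GCGTG, and it was searched for before the transcription starts of these genes. Promoters came from RefSeq (GRCh38.p14), 60 windows for 32 of the 36 genes, read over the 250 bases before each start on both strands; the palindrome CACGTG counts as 2 overlapping matches. A core was present in 36 of the 60 windows, against 53.7% of 16698 windows of all genes tested and 43.2% of all 35116 windows. By gene, 27 of the 32 had it in at least 1 window. This count by gene has no like count over all genes tested beside it, and genes with several windows had more chances of a match. It therefore does not show whether cores were more common in these genes than in others. A match is a description of letters only. The stretches below are those of genes whose levels are described further on, with cores in capitals (CACGT and CACGC are the same cores read on the other strand).

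BNIP3 has 6 matches in 160 bases outside annotated exons (chr10:131982014-131982173, minus strand), and PGK1 has 3 in 176 bases (chrX:78103998-78104173, plus strand). Both were called higher in the 2 siRNA comparisons. HK2 and PFKFB3, whose windows also hold cores, were called lower in both, and PKM and PGAM1, without a core, higher in both.
BNIP3: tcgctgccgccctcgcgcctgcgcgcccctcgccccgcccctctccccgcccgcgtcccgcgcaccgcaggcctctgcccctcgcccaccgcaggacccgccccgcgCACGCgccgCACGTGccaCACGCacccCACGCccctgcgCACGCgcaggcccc
PGK1: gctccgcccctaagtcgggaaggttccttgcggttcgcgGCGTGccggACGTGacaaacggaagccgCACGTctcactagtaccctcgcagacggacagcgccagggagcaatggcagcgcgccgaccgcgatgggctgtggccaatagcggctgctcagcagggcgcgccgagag

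The next 5 stretches of 30 bases are all on the plus strand, at chr11:10304962-10304991 for ADM, chr2:46297280-46297309 for EPAS1, chr2:74834966-74834995 for HK2, chr11:18394466-18394495 for LDHA and chr10:6202814-6202843 for PFKFB3. The starts follow RefSeq, and these 5 stretches and that of PGK1 lie inside the gene spans of the count table. Of the 5, HK2, LDHA and PFKFB3 hold the palindrome. No window of SLC2A1, PKM, PGAM1, EGLN3 or LDHB held a core. Windows of SLC2A3, SLC16A1, BNIP3L and NDRG1 were not among those read.
ADM: gcaggagcgcGCGTGgctgaggaaagaaag
EPAS1: gcctgccggcGCGTGcccgcccacacaccc
HK2: ttgctgcgccCACGTGggagggagccccct
LDHA: gcccgactcaCACGTGggttcccgCACGTc
PFKFB3: ccctcctcccCACGTGgaagggggctggga

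Among the glucose uptake and capture genes, the glucose transporters moved against each other. SLC2A3 (GLUT3), a high-affinity transporter, rose 3.83-fold in SiNAT10_TGFB over TGFB cells and 2.98-fold in SiNAT10 over con cells. SLC2A1 (GLUT1), the basal transporter of most cells, fell in both siRNA comparisons and rose with TGF-β1, although its smaller fall, in SiNAT10 against con cells, turned to 0.04 (edgeR adjusted p = 0.457) once the trend of fold change on transcript GC content was removed. SLC2A3 (ENSG00000059804, chr12:7919230-7936275 in hg38) had 152, 148 and 163 CPM in SiNAT10_TGFB libraries, 169, 174 and 187 in SiNAT10 libraries, 39.6, 40.3 and 41.1 in TGFB libraries, and 58.7, 61.3 and 58.2 in con libraries. All 6 siRNA libraries stood above the other 6, and each TGFB library was below each con library. The log2 fold change was 1.94 ± 0.064 (SE, edgeR adjusted p = 8.25e-17) in SiNAT10_TGFB over TGFB cells. It was 1.57 ± 0.063 (edgeR adjusted p = 2.94e-15) in SiNAT10 over con cells. With TGF-β1 the gene fell by 0.56 ± 0.064 in TGFB over con cells (edgeR adjusted p = 3.88e-07), and it fell by 0.19 ± 0.061 in SiNAT10_TGFB over SiNAT10 cells (edgeR adjusted p = 0.0415). The last call was lost without SiNAT10 replicate 2 or 3, or SiNAT10_TGFB replicate 1 or 2 (edgeR adjusted p between 0.0882 and 0.189). SLC2A14, a near-identical copy of SLC2A3, held 15 counts over the 12 libraries.

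SLC2A1 (ENSG00000117394, chr1:42925375-42959176) had 159, 175 and 154 CPM in SiNAT10_TGFB libraries, 140.0, 125 and 122 in SiNAT10 libraries, 254, 237 and 252 in TGFB libraries, and 139, 154 and 151 in con libraries. The TGFB libraries were the highest of the 12, and the SiNAT10 range overlapped the con range. SLC2A1 rose by 0.74 ± 0.066 on the log2 scale in TGFB over con cells (edgeR adjusted p = 7.43e-09) and by 0.34 ± 0.067 in SiNAT10_TGFB over SiNAT10 cells (edgeR adjusted p = 0.0011). It fell in SiNAT10_TGFB against TGFB cells (-0.61 ± 0.066, edgeR adjusted p = 5.66e-08). In SiNAT10 against con cells the log2 fold change was -0.20 ± 0.067 (edgeR adjusted p = 0.014), and the call was lost without con replicate 2 (edgeR adjusted p = 0.0616) or SiNAT10 replicate 2 (edgeR adjusted p = 0.061). Per length, SLC2A3 stood at 0.738, 0.650 and 0.810 of SLC2A1 in SiNAT10_TGFB libraries, 0.925, 1.07 and 1.18 in SiNAT10 libraries, 0.120, 0.130 and 0.125 in TGFB libraries, and 0.323, 0.304 and 0.295 in con libraries (ratio of FPKM). The SiNAT10 libraries thus had the highest ratios and the TGFB libraries the lowest. SLC2A1 was the more abundant in all con, TGFB and SiNAT10_TGFB libraries and in SiNAT10 replicate 1.

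Hexokinase phosphorylates glucose, and glucose-6-phosphate isomerase (GPI) makes fructose-6-phosphate from it. HK2, the inducible hexokinase, averaged 118 ± 7.25 CPM in SiNAT10_TGFB cells, 129 ± 15.9 in SiNAT10 cells, 151 ± 1.90 in TGFB cells and 149.6 ± 4.80 in con cells. It fell in SiNAT10_TGFB against TGFB cells (-0.36, edgeR adjusted p = 0.000204) and in SiNAT10 against con cells (-0.22, edgeR adjusted p = 0.0153), the second with overlapping ranges and lost without con replicate 2 or SiNAT10 replicate 2 or 3 (edgeR adjusted p between 0.0597 and 0.0766). HK1, the housekeeping isoform, averaged 476.5 ± 9.46 CPM in SiNAT10_TGFB cells, 425 ± 25.4 in SiNAT10 cells, 437 ± 14.5 in TGFB cells and 386 ± 12.4 in con cells. HK1 and GPI rose in TGFB over con cells (0.18 and 0.19) and in SiNAT10 over con cells (0.14 and 0.25). In TGFB over con cells both calls were lost without con replicate 1, TGFB replicate 1 or TGFB replicate 3 (edgeR adjusted p between 0.0564 and 0.121). The HK1 call in SiNAT10 over con cells was lost without con replicate 1 or 3 or SiNAT10 replicate 1 or 2 (edgeR adjusted p between 0.0588 and 0.189), and with the GC trend removed (0.01, edgeR adjusted p = 0.84). HK2 stood at 0.256 ± 0.0129 of HK1 in FPKM in SiNAT10_TGFB cells and 0.314 ± 0.0198 in SiNAT10 cells, against 0.359 ± 0.0149 in TGFB cells and 0.403 ± 0.00863 in con cells.

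Genes of the phosphofructokinase step, the committed step of glycolysis, were called only lower in the siRNA comparisons and only higher in the TGF-β1 comparisons. Of its 5 genes, 3 were higher and none lower in TGFB over con cells. In SiNAT10_TGFB against TGFB cells 4 were lower and none higher (all but PFKFB4), and in SiNAT10 against con cells also 4 and none (all but PFKP). In SiNAT10_TGFB against SiNAT10 cells 2 were higher and none lower. Of all genes tested, 26.3% were higher and 26.8% lower in SiNAT10_TGFB over TGFB cells, and 26.4% and 26.4% in SiNAT10 over con cells. The shares were 11.9% and 12.2% in TGFB over con cells, and 5.92% and 5.15% in SiNAT10_TGFB over SiNAT10 cells. PFKM (ENSG00000152556, chr12:48105139-48146404), the muscle-type subunit, had 45.0, 43.1 and 45.6 CPM in SiNAT10_TGFB libraries, 48.0, 44.4 and 46.8 in SiNAT10 libraries, 97.8, 87.8 and 99.2 in TGFB libraries, and 83.7, 87.5 and 89.3 in con libraries. The siRNA libraries all lay below 50 CPM and the others above 80 CPM. PFKM fell by 1.09 ± 0.068 in SiNAT10_TGFB over TGFB cells (edgeR adjusted p = 4.46e-12) and fell by 0.90 ± 0.068 in SiNAT10 over con cells (edgeR adjusted p = 1.21e-10), and it was not called in either TGF-β1 comparison. A gene on the other strand shares 8.58% of its exon bases.

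PFKFB3 (ENSG00000170525, chr10:6144934-6254644) makes fructose-2,6-bisphosphate, the strongest known activator of phosphofructokinase. It had 102, 94.4 and 90.2 CPM in SiNAT10_TGFB libraries, 68.0, 65.0 and 57.9 in SiNAT10 libraries, 142, 138 and 149 in TGFB libraries, and 82.5, 85.4 and 83.1 in con libraries. The 4 groups did not overlap and ran from TGFB at the top through SiNAT10_TGFB and con to SiNAT10. PFKFB3 rose in TGFB over con cells (0.78 ± 0.068, edgeR adjusted p = 4.51e-09) and in SiNAT10_TGFB over SiNAT10 cells (0.58 ± 0.069, edgeR adjusted p = 1.32e-06). It fell in SiNAT10_TGFB against TGFB cells (-0.58 ± 0.067, edgeR adjusted p = 1.27e-07) and in SiNAT10 against con cells (-0.39 ± 0.069, edgeR adjusted p = 4.1e-05). PFKFB4, a second enzyme of this kind, had 50.9, 47.5 and 51.2 CPM in SiNAT10_TGFB libraries, 37.4, 32.6 and 35.7 in SiNAT10 libraries, 59.2, 50.9 and 60.2 in TGFB libraries, and 37.8, 44.3 and 43.0 in con libraries. Both groups with TGF-β1 stood above both groups without it. PFKFB4 rose in TGFB over con cells (0.44 ± 0.083, edgeR adjusted p = 0.000261) and in SiNAT10_TGFB over SiNAT10 cells (0.50 ± 0.084, edgeR adjusted p = 0.000166). Its fall in SiNAT10 against con cells (-0.24, edgeR adjusted p = 0.0196) was lost without con replicate 2 or 3 or SiNAT10 replicate 2 (edgeR adjusted p between 0.0667 and 0.106).

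PFKP (ENSG00000067057, chr10:3066333-3137712), the platelet-type subunit, had 166, 185 and 177 CPM in SiNAT10_TGFB libraries, 189, 175 and 154 in SiNAT10 libraries, 269, 255 and 271 in TGFB libraries, and 168, 190.1 and 189 in con libraries. Only the TGFB libraries stood apart. PFKP rose in TGFB over con cells (0.54 ± 0.070, edgeR adjusted p = 2.75e-06) and fell in SiNAT10_TGFB against TGFB cells (-0.59 ± 0.071, edgeR adjusted p = 2.17e-07). PFKL, the liver-type subunit, averaged 232 ± 9.76 CPM in SiNAT10_TGFB cells, 238 ± 37.6 in SiNAT10 cells, 373 ± 10.4 in TGFB cells and 349.6 ± 23.4 in con cells. It fell in SiNAT10_TGFB against TGFB cells (-0.69, edgeR adjusted p = 1.38e-07) and in SiNAT10 against con cells (-0.55, edgeR adjusted p = 3.36e-06). The 3 subunits summed to 68.6 ± 2.37 FPKM in SiNAT10_TGFB cells, 68.7 ± 8.01 in SiNAT10 cells, 109 ± 3.98 in TGFB cells and 88.5 ± 5.45 in con cells. PFKM made up 8.92% ± 0.548 of that sum in SiNAT10_TGFB cells, 9.30% ± 1.02 in SiNAT10 cells, 11.8% ± 0.377 in TGFB cells and 13.4% ± 0.447 in con cells, and PFKP made up 53.2%, 52.0%, 50.02% and 42.5% in the same 4 groups.

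Removing the GC trend altered several of these values. PFKL (64.4% GC), PFKFB3 (59.2%) and PFKP (58.0%) lie above the median of the genes tested (49.8%). With the GC trend removed, SiNAT10 over con gave -0.06 for PFKL (edgeR adjusted p = 0.26) and -0.06 for PFKFB3 (edgeR adjusted p = 0.304), which ended both calls. PFKP, not called there before (-0.08, edgeR adjusted p = 0.359), stood at 0.18 (edgeR adjusted p = 0.0025). SiNAT10_TGFB over TGFB then gave -0.19 for PFKL, -0.26 for PFKFB3 and -0.34 for PFKP, all still called. PFKM (51.8% GC) stood at -1.19 and -1.004 in these 2 comparisons with the trend removed.

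**Figure D2:**
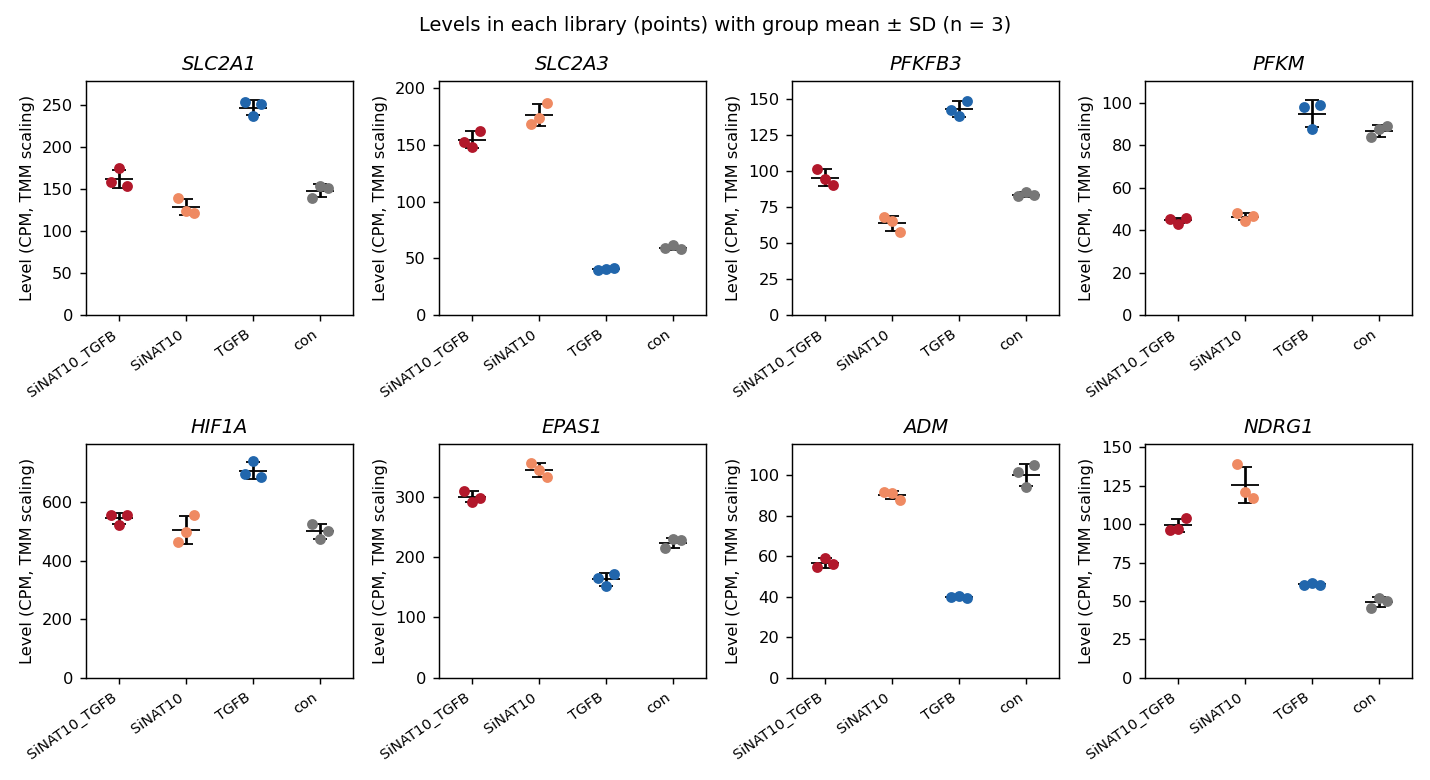
CPM in each library (points) with the group mean and SD (black) for 8 genes, the 4 groups along each horizontal axis. SLC2A3 and PFKM split the 6 siRNA libraries from the other 6, while SLC2A1, PFKFB3 and HIF1A peak in TGFB libraries.

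From aldolase to pyruvate kinase, all 9 genes of lower glycolysis were higher in SiNAT10 over con cells, with a median log2 fold change of 0.34 and a range of 0.20 to 0.70, the highest being ALDOA, whose counting is uncertain. In SiNAT10_TGFB over TGFB cells 5 were higher and none lower, with ALDOA (0.08), ALDOC (-0.06), GAPDH (0.12) and ENO2 (-0.07) not called, and in TGFB over con cells 5 were higher and 1 lower. Of all genes tested, 26.4% were higher and 26.4% lower in SiNAT10 over con cells. The shares were 26.3% and 26.8% in SiNAT10_TGFB over TGFB cells, and 11.9% and 12.2% in TGFB over con cells. The shifts of the 9 genes were small beside that of SLC2A3. The largest of the abundant enzymes was PGK1 (ENSG00000102144, chrX:77910739-78129296), which makes the first ATP of the pathway. It had 1470, 1660 and 1609 CPM in SiNAT10_TGFB libraries, 1549, 1409 and 1547 in SiNAT10 libraries, 1261, 1233 and 1220 in TGFB libraries, and 938, 973 and 979 in con libraries. The con libraries were lowest, the TGFB libraries next, and both siRNA groups above them and overlapping each other. PGK1 rose in SiNAT10 over con cells (0.64 ± 0.052, edgeR adjusted p = 5.06e-10), in SiNAT10_TGFB over TGFB cells (0.35 ± 0.052, edgeR adjusted p = 4.73e-06) and in TGFB over con cells (0.36 ± 0.052, edgeR adjusted p = 1.05e-05).

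TPI1, triose phosphate isomerase, averaged 1694 ± 80.9 CPM in SiNAT10_TGFB cells, 1614 ± 126 in SiNAT10 cells, 1483 ± 55.9 in TGFB cells and 1261 ± 85.7 in con cells. PGAM1, phosphoglycerate mutase, averaged 824 ± 69.8, 799 ± 37.5, 663 ± 24.8 and 582 ± 7.04 CPM in the same 4 groups. TPI1, PGAM1 and ENO1, the main enolase, were called higher in SiNAT10_TGFB over TGFB cells (0.19, 0.31 and 0.17), in SiNAT10 over con cells (0.36, 0.46 and 0.31) and in TGFB over con cells (0.23, 0.19 and 0.15). Not all of these calls held when a library was left out. In TGFB over con cells, PGAM1 lost its call without con replicate 1 or 2 or TGFB replicate 1 or 2 (edgeR adjusted p between 0.0568 and 0.117), and ENO1 without con replicate 1 or 2 or any single TGFB replicate (edgeR adjusted p between 0.0551 and 0.153). TPI1 in SiNAT10_TGFB over TGFB cells lost its call without TGFB replicate 2 or SiNAT10_TGFB replicate 2 (edgeR adjusted p between 0.0526 and 0.0551).

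PKM, pyruvate kinase, was the only gene of these 9 called lower with TGF-β1. It averaged 3288 ± 153 CPM in SiNAT10_TGFB cells, 3676 ± 182 in SiNAT10 cells, 2666 ± 91.8 in TGFB cells and 3138 ± 133 in con cells. PKM fell in TGFB against con cells (-0.24 ± 0.049, edgeR adjusted p = 0.000841) and rose in SiNAT10_TGFB over TGFB cells (0.30 ± 0.049, edgeR adjusted p = 1.51e-05) and in SiNAT10 over con cells (0.23 ± 0.049, edgeR adjusted p = 0.000415). Its fall in SiNAT10_TGFB against SiNAT10 cells (-0.16, edgeR adjusted p = 0.0341) was lost without SiNAT10 replicate 1 or SiNAT10_TGFB replicate 1 or 3 (edgeR adjusted p between 0.0939 and 0.147). GAPDH, a common reference gene, averaged 3560.0 ± 182 CPM in SiNAT10_TGFB cells, 3584 ± 340.0 in SiNAT10 cells, 3270.0 ± 66.4 in TGFB cells and 3111 ± 207 in con cells. It was called only in SiNAT10 over con cells (0.20, edgeR adjusted p = 0.00565), and not without con replicate 1 (edgeR adjusted p = 0.0523) or SiNAT10 replicate 1 (edgeR adjusted p = 0.0621). With the GC trend removed GAPDH was also higher in SiNAT10_TGFB over TGFB cells (0.37, edgeR adjusted p = 4.94e-08), while PGK1 stood at 0.17 (edgeR adjusted p = 0.00384) there.

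ENO2, the neuronal enolase, averaged 135 ± 10.9 CPM in SiNAT10_TGFB cells, 159 ± 18.8 in SiNAT10 cells, 142 ± 1.82 in TGFB cells and 129.5 ± 9.73 in con cells, and rose in SiNAT10 over con cells (0.30, edgeR adjusted p = 0.00248). ALDOC, the brain-type aldolase, was called in TGFB over con cells (0.32) and in SiNAT10 over con cells (0.34). The first was lost without con replicate 1 or TGFB replicate 1 or 3 (edgeR adjusted p between 0.0774 and 0.129) and the second without con replicate 1 (edgeR adjusted p = 0.0604). ALDOA, the main aldolase of most cells, was listed at only 1.70 FPKM on average. It shares 42.3% of its exon bases with a same-strand protein-coding gene, AC093512.2, and 13.3% with genes on the other strand, so its level and its call in SiNAT10 over con cells (0.70, edgeR adjusted p = 0.000901) are uncertain. GAPDH shares 14.2% and ALDOC 10.1% of exon bases with genes on the other strand, and whether the counting used strand is not given in the labels.

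**Figure D3:**
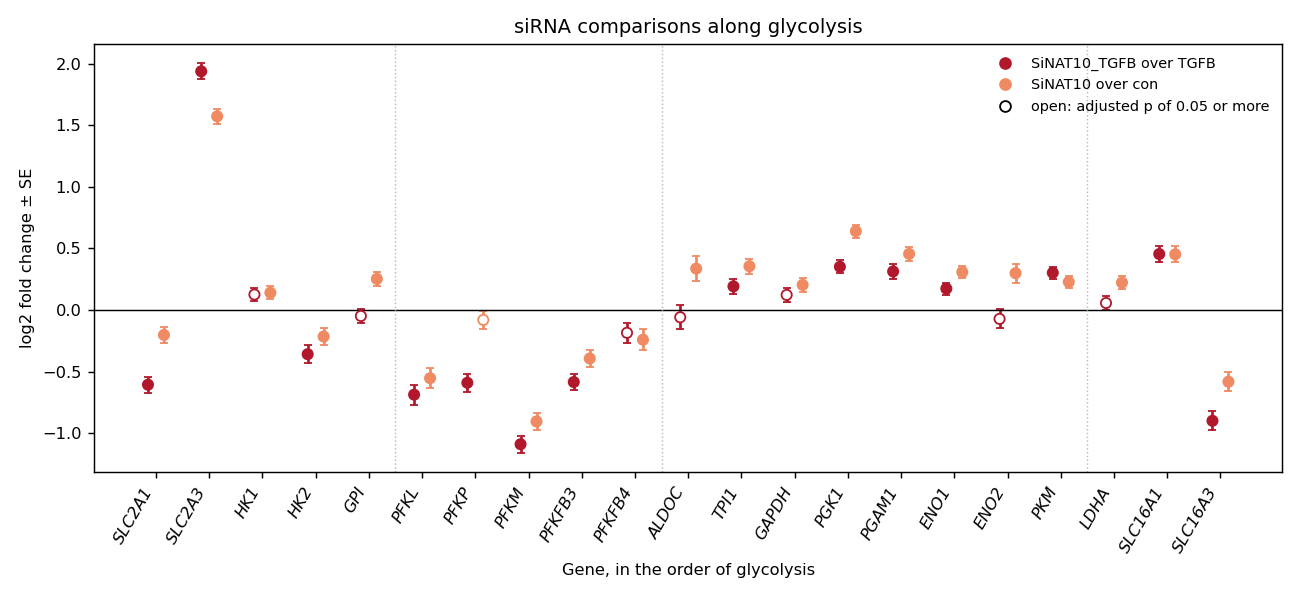
Log2 fold change ± SE (vertical) of 21 genes in the order of glycolysis (horizontal) for SiNAT10_TGFB over TGFB (dark) and SiNAT10 over con (light), open where the adjusted p was 0.05 or more. The values of the phosphofructokinase genes lie below 0 and the genes from TPI1 to PKM at or above it, apart from ENO2 at -0.07 in SiNAT10_TGFB over TGFB. ALDOA and LDHB are not drawn because they share 42.3% and 33.4% of exon bases with same-strand genes. Some drawn genes share smaller parts with other genes.

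At the end of the pathway the lactate transporters differed in direction in the siRNA comparisons. SLC16A3 (MCT4), the lactate exporter of glycolytic cells, and SLC16A1 (MCT1), which carries lactate both ways, were called in opposite directions in both siRNA comparisons, and both were called higher in TGFB over con cells. SLC16A3 (ENSG00000141526, chr17:82228397-82261129) had 258, 269 and 257 CPM in SiNAT10_TGFB libraries, 264, 238 and 198 in SiNAT10 libraries, 516, 464 and 482 in TGFB libraries, and 330.3, 353 and 365 in con libraries. The TGFB libraries were highest and all 6 siRNA libraries lowest. SLC16A3 fell in SiNAT10_TGFB against TGFB cells (-0.90 ± 0.076, edgeR adjusted p = 7.39e-10) and in SiNAT10 against con cells (-0.58 ± 0.075, edgeR adjusted p = 7.71e-07). It rose in TGFB over con cells (0.48 ± 0.075, edgeR adjusted p = 3.11e-05) and was not called in SiNAT10_TGFB over SiNAT10 cells (0.16, edgeR adjusted p = 0.207). At 66.0% GC it had the highest GC content of the 36 genes, and with the GC trend removed the 2 siRNA values became -0.37 (edgeR adjusted p = 7.2e-08) and -0.08 (edgeR adjusted p = 0.152).

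SLC16A1 averaged 182 ± 9.2 CPM in SiNAT10_TGFB cells, 158 ± 13.9 in SiNAT10 cells, 132 ± 5.61 in TGFB cells and 116 ± 2.45 in con cells. It rose in SiNAT10_TGFB over TGFB cells (0.45 ± 0.065, edgeR adjusted p = 3.03e-06) and in SiNAT10 over con cells (0.45 ± 0.065, edgeR adjusted p = 3.65e-06). With the GC trend removed these became 0.28 and 0.29, both still called. The calls with TGF-β1, 0.20 in both comparisons, were lost when some libraries were left out. In TGFB over con cells the call was lost without any single con replicate or TGFB replicate 1 or 2 (edgeR adjusted p between 0.0547 and 0.133), and in SiNAT10_TGFB over SiNAT10 cells without SiNAT10 replicate 1 or 2 or any single SiNAT10_TGFB replicate (edgeR adjusted p between 0.0503 and 0.227). SLC16A1 stood at 1.14, 1.12 and 1.27 of SLC16A3 in FPKM in SiNAT10_TGFB libraries, 0.962, 1.07 and 1.49 in SiNAT10 libraries, 0.448, 0.493 and 0.443 in TGFB libraries, and 0.589, 0.567 and 0.528 in con libraries.

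LDHA, the lactate dehydrogenase subunit that favours lactate, averaged 1420.0 ± 92.7 CPM in SiNAT10_TGFB cells, 1337 ± 89.6 in SiNAT10 cells, 1365 ± 25.7 in TGFB cells and 1145 ± 31.4 in con cells. It rose in TGFB over con cells (0.25, edgeR adjusted p = 0.0012) and in SiNAT10 over con cells (0.22, edgeR adjusted p = 0.0015), the second ending with the GC trend removed (0.07, edgeR adjusted p = 0.209). LDHB was listed at 4.79 FPKM on average against 212 FPKM for LDHA, and was not called in any comparison; a same-strand gene shares 33.4% of its exon bases, so its level is uncertain. PDK1 and PDK3 are mitochondrial kinases that inhibit pyruvate dehydrogenase and so limit the conversion of pyruvate to acetyl-CoA. PDK1 was higher in SiNAT10 over con cells (0.38, edgeR adjusted p = 0.00181). In SiNAT10_TGFB over TGFB cells it stood at 0.26 (edgeR adjusted p = 0.027) with overlapping ranges, which was lost without TGFB replicate 1 or 3 or SiNAT10_TGFB replicate 2 (edgeR adjusted p between 0.0708 and 0.164) and with the GC trend removed (0.08). PDK3 averaged 17.6 ± 1.2 CPM in TGFB cells and 21.4 ± 1.12 in con cells, a log2 fold change of -0.29 (edgeR adjusted p = 0.0356) that was lost without con replicate 1 or 2 or TGFB replicate 1 or 2 (edgeR adjusted p between 0.0722 and 0.145), with the GC trend removed (-0.23, edgeR adjusted p = 0.0631) and on FPKM in limma (adjusted p between 0.0534 and 0.0833).

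The 2 HIF α subunits moved in opposite directions with TGF-β1 alone and with the siRNA on top of it. HIF1A (ENSG00000100644, chr14:61695513-61748259) had 555, 522 and 557 CPM in SiNAT10_TGFB libraries, 462, 496 and 556 in SiNAT10 libraries, 697, 740.1 and 686 in TGFB libraries, and 526, 473 and 501 in con libraries. The 3 TGFB libraries stood above the other 9, which overlapped. HIF1A rose in TGFB over con cells (0.50 ± 0.062, edgeR adjusted p = 1.25e-06) and fell in SiNAT10_TGFB against TGFB cells (-0.38 ± 0.062, edgeR adjusted p = 1.81e-05). It was not called in SiNAT10 over con cells (0.01 ± 0.062, edgeR adjusted p = 0.873) or in SiNAT10_TGFB over SiNAT10 cells (0.11 ± 0.062, edgeR adjusted p = 0.339). With the GC trend removed these values were -0.19 (edgeR adjusted p = 0.000165) and 0.17 (edgeR adjusted p = 0.00377), both called; HIF1A, at 41.0%, had the lowest GC content of the 36 genes.

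EPAS1 (ENSG00000116016, chr2:46293667-46386703) had 311, 292 and 298 CPM in SiNAT10_TGFB libraries, 356, 345 and 333 in SiNAT10 libraries, 165, 152 and 172 in TGFB libraries, and 215, 229 and 228 in con libraries. The 4 groups did not overlap, with SiNAT10 highest and TGFB lowest. EPAS1 rose in SiNAT10_TGFB over TGFB cells (0.88 ± 0.059, edgeR adjusted p = 1.33e-11) and in SiNAT10 over con cells (0.62 ± 0.058, edgeR adjusted p = 4.72e-09). It fell in TGFB against con cells (-0.46 ± 0.058, edgeR adjusted p = 1.96e-06). In SiNAT10_TGFB against SiNAT10 cells it stood at -0.20 ± 0.058 (edgeR adjusted p = 0.0258), a call lost without SiNAT10 replicate 1 or 2 or SiNAT10_TGFB replicate 2 or 3 (edgeR adjusted p between 0.075 and 0.119). EPAS1 was at 0.389 ± 0.0102 of HIF1A in FPKM in SiNAT10_TGFB cells and 0.486 ± 0.0604 in SiNAT10 cells, against 0.163 ± 0.0166 in TGFB cells and 0.317 ± 0.0271 in con cells. HIF1A was the more abundant subunit in all 12 libraries.

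EGLN1 and KDM3A, regulators that are also known HIF targets, rose in both siRNA comparisons. EGLN1 (PHD2), the main prolyl hydroxylase that marks HIF α subunits for degradation, averaged 118 ± 6.32 CPM in SiNAT10_TGFB cells, 115 ± 5.68 in SiNAT10 cells, 89.8 ± 3.27 in TGFB cells and 79.6 ± 6.98 in con cells. KDM3A, a histone H3 lysine 9 demethylase, averaged 127 ± 3.31, 116 ± 3.84, 89.9 ± 4.31 and 75.4 ± 2.93 CPM in the same 4 groups. EGLN1 rose in SiNAT10_TGFB over TGFB cells (0.39, edgeR adjusted p = 4.55e-05) and in SiNAT10 over con cells (0.53, edgeR adjusted p = 9.18e-07). KDM3A rose in both as well (0.50 and 0.62) and in TGFB over con cells (0.25, edgeR adjusted p = 0.00331). With the GC trend removed EGLN1 stood at 0.19 and 0.33 and KDM3A at 0.31 and 0.45 in the siRNA comparisons, all still called.

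**Figure D4:**
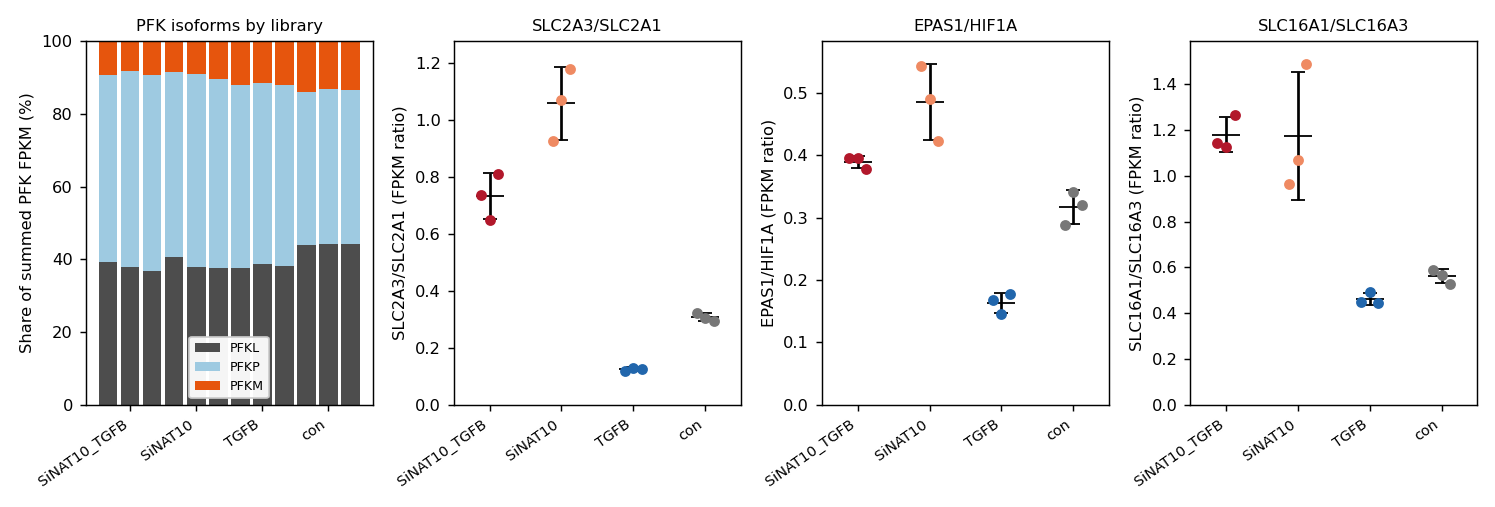
Share of each PFK subunit in their summed FPKM, a bar per library (left), and the FPKM ratio of 3 pairs of genes in each library (points) with group mean and SD (black). The siRNA libraries have the higher SLC2A3/SLC2A1 and SLC16A1/SLC16A3 ratios, and EPAS1/HIF1A is lowest in TGFB libraries (0.163 ± 0.0166).

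The hypoxia effectors did not move as a block. ADM, adrenomedullin, a vasodilator peptide, showed the largest fall with TGF-β1 among the 34 genes. ADM (ENSG00000148926, chr11:10304680-10307397) had 54.5, 59.0 and 56.3 CPM in SiNAT10_TGFB libraries, 91.5, 91.2 and 87.8 in SiNAT10 libraries, 39.7, 40.1 and 39.2 in TGFB libraries, and 102, 94.2 and 105 in con libraries. Each group with TGF-β1 lay below both groups without it. ADM fell by 1.33 ± 0.065 in TGFB over con cells (edgeR adjusted p = 1.61e-13) and fell by 0.67 ± 0.064 in SiNAT10_TGFB over SiNAT10 cells (edgeR adjusted p = 5.03e-08). It rose in SiNAT10_TGFB over TGFB cells (0.51 ± 0.066, edgeR adjusted p = 6.26e-07). In SiNAT10 over con cells the value was -0.15 ± 0.063 (edgeR adjusted p = 0.0471). That call was lost without con replicate 1 or 3 or any single SiNAT10 replicate (edgeR adjusted p between 0.0523 and 0.182), and with the GC trend removed the sign turned to 0.21 (edgeR adjusted p = 0.00387).

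NDRG1, a stress-response gene induced by hypoxia and by differentiation, had the second largest rise in SiNAT10 over con cells, after SLC2A3. NDRG1 (ENSG00000104419, chr8:133237171-133302022) had 96.5, 97.1 and 104 CPM in SiNAT10_TGFB libraries, 139, 121 and 117 in SiNAT10 libraries, 60.6, 61.4 and 60.1 in TGFB libraries, and 45.6, 52.0 and 50.1 in con libraries. The 4 groups did not overlap, with SiNAT10 highest and con lowest. NDRG1 rose in SiNAT10 over con cells (1.35 ± 0.073, edgeR adjusted p = 4.42e-13) and in SiNAT10_TGFB over TGFB cells (0.71 ± 0.072, edgeR adjusted p = 1.84e-08). With TGF-β1 it fell in cells with siRNA (-0.34 ± 0.071, edgeR adjusted p = 0.00166) and rose in cells without siRNA (0.30 ± 0.073, edgeR adjusted p = 0.00323).

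BNIP3 (ENSG00000176171, chr10:131966455-131982013), a mitophagy receptor, rose in both siRNA comparisons. It had 254, 284 and 279.9 CPM in SiNAT10_TGFB libraries, 302, 285 and 328 in SiNAT10 libraries, 169.9, 170.1 and 163 in TGFB libraries, and 187, 172 and 176 in con libraries. All siRNA libraries stood above the others. BNIP3 rose in SiNAT10_TGFB over TGFB cells (0.70 ± 0.063, edgeR adjusted p = 2.12e-09) and in SiNAT10 over con cells (0.77 ± 0.063, edgeR adjusted p = 4.43e-10), and was not called with TGF-β1 in either comparison. With the GC trend removed BNIP3 was called lower in SiNAT10_TGFB over SiNAT10 cells (-0.19, edgeR adjusted p = 0.0241). With library size alone BNIP3 was called lower in both TGF-β1 comparisons (-0.23 and -0.22), where the median of all genes was -0.14 and -0.07. Its paralogue BNIP3L (NIX) averaged 144 ± 9.68 CPM in SiNAT10_TGFB cells, 157 ± 16.1 in SiNAT10 cells, 172 ± 5.61 in TGFB cells and 162 ± 8.71 in con cells. BNIP3L fell in SiNAT10_TGFB against TGFB cells (-0.25, edgeR adjusted p = 0.00416). In FPKM, BNIP3L stood at 0.654 ± 0.0425 of BNIP3 in SiNAT10_TGFB cells and 0.636 ± 0.0324 in SiNAT10 cells, against 1.27 ± 0.00975 in TGFB cells and 1.13 ± 0.0340 in con cells. ANKRD37, an ankyrin-repeat gene, was near 1 to 2 CPM and was higher in TGFB over con cells (0.99 ± 0.31, edgeR adjusted p = 0.0212), which was lost without con replicate 1 or TGFB replicate 2 or 3 (edgeR adjusted p between 0.0501 and 0.117). A gene on the other strand shares 35.2% of its exon bases.

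The 2 siRNA comparisons share no library, nor do the 2 TGF-β1 comparisons, so calls within each pair can be set side by side. In the siRNA pair (SiNAT10_TGFB over TGFB and SiNAT10 over con), 13 genes were higher in both, 6 were lower in both and 1, ADM, was called in opposite directions. The same direction held for 55.9% of the 34 genes and for 41.6% of all genes tested. The 13 were SLC2A3, TPI1, PGK1, PGAM1, ENO1, PKM, SLC16A1, PDK1, EPAS1, EGLN1, KDM3A, BNIP3 and NDRG1, and the 6 were SLC2A1, HK2, PFKL, PFKM, PFKFB3 and SLC16A3. With the GC trend removed, 4 of the 6 (SLC2A1, PFKL, PFKFB3 and SLC16A3) lost their call in SiNAT10 over con cells, PDK1 lost its call in SiNAT10_TGFB over TGFB cells, and ADM was called higher in both. GPI, GAPDH and ALDOA were then also called higher in both, and HIF1A, BNIP3L and PDK3 lower in both. PFKP was then called in opposite directions. In the TGF-β1 pair (TGFB over con and SiNAT10_TGFB over SiNAT10), SLC2A1, PFKFB3, PFKFB4 and SLC16A1 were higher in both, and SLC2A3, PKM, EPAS1 and ADM lower in both, which is 23.5% of the 34 genes and compares with 8.46% of all genes. The calls of SLC16A1, SLC2A3, PKM and EPAS1 in SiNAT10_TGFB over SiNAT10 cells were each lost when some single libraries were left out. NDRG1 was called in opposite directions, as were 30 of all 18560 genes. Of this pair, 14 of the 34 genes were called in TGFB over con cells only, beside 2871 of the 18560. With the GC trend removed, HIF1A, SLC16A3, HK1 and KDM3A were also called higher in both TGF-β1 comparisons. GPI was then called in opposite directions (0.17 and -0.15). Calls over all genes rose too, in SiNAT10_TGFB over SiNAT10 cells from 1098 higher and 956 lower to 1524 and 1448.

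Whether the response to TGF-β1 differed with the siRNA was tested as an interaction, (SiNAT10_TGFB over SiNAT10) minus (TGFB over con). It was called for 8 of the 34 genes, 2 higher and 6 lower, beside 3.85% of all genes tested (1.94% higher, 1.91% lower). ADM (0.66 ± 0.091, edgeR adjusted p = 5.87e-05) and SLC2A3 (0.37 ± 0.088, edgeR adjusted p = 0.0165) were positive, and both had a smaller fall with TGF-β1 in siRNA cells. NDRG1 (-0.645 ± 0.10, edgeR adjusted p = 0.000315) changed sign between the 2 settings. PFKP (-0.51 ± 0.10, edgeR adjusted p = 0.00297), HIF1A (-0.39 ± 0.088, edgeR adjusted p = 0.00941), SLC2A1 (-0.40 ± 0.094, edgeR adjusted p = 0.0126), GPI (-0.30 ± 0.077, edgeR adjusted p = 0.0252) and PGK1 (-0.29 ± 0.074, edgeR adjusted p = 0.0245) rose with TGF-β1 in cells without siRNA. In siRNA cells, of these 5, only SLC2A1 was called higher with TGF-β1. PFKFB3 and PFKFB4 rose in both settings and were not called in this test (-0.19 and 0.06). With the GC trend removed, TGF-β1 in siRNA cells also gave calls for HIF1A (0.17, edgeR adjusted p = 0.00377) and GPI (-0.15, edgeR adjusted p = 0.00954). The interaction was then called for 3 genes higher and 9 lower, beside 706 and 673 of the 18560. EPAS1 (0.25), ENO2 (-0.38), SLC16A3 (-0.29) and ALDOC (-0.40) were the added ones.

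Genes next to these in metabolism were read from lists compiled from general knowledge, beside all genes tested, of which 26.3% were higher and 26.8% lower in SiNAT10_TGFB over TGFB cells, 26.4% and 26.4% in SiNAT10 over con cells, and 11.9% and 12.2% in TGFB over con cells. Of 18 tested other isoforms and transporters of glycolysis, 3 were higher and 3 lower in SiNAT10_TGFB over TGFB cells, and 4 and 2 in SiNAT10 over con cells. BPGM, which makes 2,3-bisphosphoglycerate, averaged 49.3 CPM in SiNAT10_TGFB cells, 16.2 in SiNAT10 cells, 23.5 in TGFB cells and 11.6 in con cells. Of 11 tested genes of pyruvate oxidation, 6 were higher and 2 lower in SiNAT10_TGFB over TGFB cells, and 1 was higher and 4 lower in TGFB over con cells. PDP1, the phosphatase that switches pyruvate dehydrogenase on, rose in SiNAT10_TGFB over TGFB cells (1.46 ± 0.070) and SiNAT10 over con cells (0.95 ± 0.067) and fell in TGFB against con cells (-0.998 ± 0.069). Of 10 tested pentose phosphate genes, 3 were higher and 1 lower in SiNAT10_TGFB over TGFB cells. Of 19 tested genes of glycogen metabolism, 6 were higher and 8 lower there, with GYS1, glycogen synthase, at 76.6 CPM in SiNAT10_TGFB cells, 58.1 in SiNAT10 cells, 171 in TGFB cells and 91.5 in con cells.

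The rest of the HIF pathway and other known hypoxia targets were called in both directions too, again beside 26.3% of all genes higher and 26.8% lower in SiNAT10_TGFB over TGFB cells, 26.4% and 26.4% in SiNAT10 over con cells, and 11.9% and 12.2% in TGFB over con cells. Of 13 tested genes of HIF regulation, 8 were higher and 4 lower in each siRNA comparison, beside 1 higher and 2 lower in TGFB over con cells. CITED2, which competes with HIF for its coactivators, averaged 123 CPM in SiNAT10_TGFB cells, 234 in SiNAT10 cells, 40.7 in TGFB cells and 128 in con cells, and fell by 1.65 ± 0.069 in TGFB over con cells (edgeR adjusted p = 8.51e-15). Of 34 tested other hypoxia targets, 16 were higher and 9 lower in SiNAT10_TGFB over TGFB cells, 20 higher and 8 lower in SiNAT10 over con cells, and 13 higher and 4 lower in TGFB over con cells. STC1, a secreted glycoprotein, averaged 275 CPM in SiNAT10_TGFB cells, 447 in SiNAT10 cells, 39.8 in TGFB cells and 35.8 in con cells. VEGFA, the angiogenic growth factor, averaged 191, 86.0, 114 and 34.9 CPM, and BHLHE40, a repressor of transcription, 587, 322, 602 and 155 CPM, in the same 4 groups.

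Proliferation genes and stellate markers also differed between the groups. The summed level of 12 proliferation genes was 1966 ± 24.9 CPM in SiNAT10_TGFB cells, 2262 ± 75.1 in SiNAT10 cells, 3526 ± 66.1 in TGFB cells and 4082 ± 56.2 in con cells. The 12 stellate markers summed to 2286 ± 151, 1799 ± 44.4, 9166 ± 351 and 4439 ± 115 CPM in the same groups, led by COL1A1. COL1A1 alone averaged 1360, 880, 7550 and 3040 CPM, and the markers did not move as a set. Of 10 tested, 4 were higher and 3 lower in TGFB over con cells, beside 11.9% and 12.2% of all genes. In SiNAT10_TGFB over TGFB cells 2 were higher and 6 lower, beside 26.3% and 26.8%. RELN fell in TGFB over con cells (-3.01) and rose in SiNAT10 over con cells (2.31), against COL1A1 (1.31 and -1.79). The part of the proliferation genes and stellate markers in the changes of the glycolysis and hypoxia genes was not tested.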

How the data were processed

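Total RNA from LX-2 cells was sequenced in 12 libraries, 3 in each of 4 groups taken from the labels. Gene counts and FPKM were deposited by the authors with a gene length for 58735 genes. Per the submitters' processing notes, fastp, HISAT2 2.2.1 and hg38 were used; the counting tool, its annotation and its strand setting are not given in these sources. The authors' deposited FPKM equalled values computed from the counts and lengths up to a factor per library.

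Tests on the counts used edgeR 4.0.16 under R 4.3.3. Genes passing filterByExpr (18560, with 99.88 to 99.93% of counts) were scaled by TMM (factors 0.922 to 1.069) and fitted as 4 group means by quasi-likelihood; 4 contrasts and the interaction were tested two-sided, with Benjamini-Hochberg adjusted p over the 18560 genes. The SE is the absolute log2 fold change over the square root of F. FPKM served for levels between genes. DESeq2 1.42.0 and limma 3.58.1 were alternatives, limma also on log2(FPKM + 1) or log2(FPKM + 0.1). GC content came from GENCODE 29 transcripts and was removed as a spline with 5 degrees of freedom. The CPM of 3 counts was taken from the TMM-scaled size of each library, so its range is a range of library sizes and holds no counting error.

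Genes given by library were the called ones with the 6 smallest p in a comparison, with at least 1 CPM on average, and HIF1A and EPAS1; lists gave at most 3 genes. The genes, lists and tests were chosen with earlier results of these data known.

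Same-numbered replicates of different groups did not deviate together (Pearson r from -0.073 to 0.048 over 18 pairs), so the numbers were not used as a block.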

Additional observations from a re-analysis of the deposited data

Results flagged for a closer look

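Of the 34 genes tested, 8 had a response to TGF-β1 that differed between cells with and without NAT10 siRNA, by the interaction term of the edgeR fit. On the log2 scale the difference was 0.664 for ADM, 0.365 for SLC2A3, -0.645 for NDRG1, -0.511 for PFKP, -0.404 for SLC2A1, -0.393 for HIF1A, -0.301 for GPI and -0.289 for PGK1. ADM fell with TGF-β1 in both settings, with log2 fold changes of -0.67 in siRNA cells and -1.33 in cells without siRNA. NDRG1 fell by 0.34 in siRNA cells and rose by 0.30 in cells without siRNA. PFKP and HIF1A stood at 0.03 and 0.11 in siRNA cells, not called, against 0.54 and 0.50 in cells without siRNA. With the GC trend removed HIF1A was called higher in siRNA cells (0.17, edgeR adjusted p = 0.00377). Without TGFB replicate 1 or SiNAT10_TGFB replicate 3, the SLC2A1 call was lost (edgeR adjusted p = 0.0542 and 0.0506). The SLC2A3 call was lost without con replicate 2, TGFB replicate 1 or SiNAT10 replicate 2 (edgeR adjusted p between 0.0541 and 0.0553). GPI lost its call without con replicate 1 or 3, TGFB replicate 1 or 3, SiNAT10 replicate 1 or 2, or SiNAT10_TGFB replicate 3 (edgeR adjusted p between 0.052 and 0.0918). PGK1 lost it without con replicate 1 or 2, any single TGFB replicate, or SiNAT10_TGFB replicate 1 (edgeR adjusted p between 0.0523 and 0.0863). ADM, NDRG1, PFKP and HIF1A kept their calls whichever library was left out.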

How the results depend on the processing

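Over the 170 values of single genes (34 genes in 5 comparisons), no scaling, filter, tool or left-out library turned the direction of a called value. Removing the GC trend turned 6 that were called before or after, with the same values to 2 decimals with the replicate block added: GPI 0.234 and LDHA -0.113 in SiNAT10_TGFB over TGFB, and SLC2A1 0.045, PFKP 0.182 (0.183 with the block), HIF1A -0.194 and ADM 0.213 in SiNAT10 over con. SLC2A1 was not called after the turn (edgeR adjusted p = 0.457).

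Counts of called genes moved by over 1.5 times as follows. In TGFB over con, 18 higher became 8 with library size alone, 11 at an adjusted p under 0.01 and 5 at an absolute log2 fold change of at least 0.5, which also left 2 of the 5 lower. In SiNAT10_TGFB over TGFB, that fold limit left 5 of 14 higher. In SiNAT10 over con, it left 8 of 20 higher and 3 of 8 lower, and the 8 lower became 4 with library size alone, 5 with log2(FPKM + 1) in limma with no filter and 4 at 0.01. In SiNAT10_TGFB over SiNAT10, 4 higher became 8 with the GC trend removed, 7 with block and GC together and 2 at the fold limit. The 5 lower there became 8 with library size alone, 2 with unfiltered FPKM, 2 with only the groups compared, 3 with the replicate block, 8 with GC removed, 8 with block and GC together, 2 at 0.01 and 1 at the fold limit. For the interaction, 2 higher became 1 with unfiltered FPKM, at 0.01 and at the fold limit, and 6 lower became 3 with log2(FPKM + 0.1), 1 with unfiltered FPKM, 3 at 0.01 and 2 at the fold limit. The cause was not tested. Library size alone moved the median of all genes to -0.14 in TGFB over con and to 0.14 in SiNAT10_TGFB over TGFB.

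Leaving out each library in turn gave 12 to 17 higher and 4 to 5 lower in TGFB over con, 12 to 15 and 9 to 10 in SiNAT10_TGFB over TGFB, 17 to 20 and 4 to 7 in SiNAT10 over con, 3 to 5 and 3 to 5 in SiNAT10_TGFB over SiNAT10, and 1 to 2 and 3 to 8 for the interaction. The moves over 1.5 times were 5 lower without con replicate 2 and 4 without SiNAT10 replicate 2 in SiNAT10 over con, 3 lower without SiNAT10 replicate 1 or 2 or any single SiNAT10_TGFB replicate in SiNAT10_TGFB over SiNAT10, and for the interaction 1 higher without con replicate 2, TGFB replicate 1 or SiNAT10 replicate 2 and 3 lower without TGFB replicate 1. The replicate block used numbers that do not pair the samples; of the calls in the interaction it ended those of GPI (edgeR adjusted p = 0.0534) and PGK1 (edgeR adjusted p = 0.052). Depth limited CA9 and EGLN3, too low to test, and ANKRD37, near 1 to 2 CPM.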
